A study of Homo sapiens with 6 samples.

Results

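The genes described here encode the subunits of the mitochondrial respiratory chain and the ATP synthase. They were chosen by symbol from the deposited count tables (NDUF, SDH, UQCR, CYC1, COX and ATP5 symbols of the nucleus, and ND, CYTB, COX and ATP symbols of the mitochondrial genome), which gave 100 of 23059 genes. Of these, 87 were nuclear and 13 mitochondrially encoded. The nuclear symbols held 82 subunit genes, with 36 of complex I, 4 of complex II, 9 of complex III, 16 of complex IV and 17 of complex V, the ATP synthase. NDUFA4, named for complex I, was placed in complex IV, of which it is a subunit. The 5 other nuclear symbols were UQCRHL (a retrocopy of UQCRH), ATP5MGL (a copy of ATP5MG), UQCRB-AS1 (an antisense RNA gene), UQCRFS1-DT (a divergent transcript) and ATP5IF1, the inhibitor of the ATP synthase.

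The cells were HCC-LM3, a highly metastatic line of human liver cancer (hepatocellular carcinoma). One group was treated with apigenin, a plant flavone (3 libraries), and the other received DMSO, the solvent control (3 libraries). The sources used here give neither dose nor duration of the treatment. Total RNA was isolated for the libraries, which had 33882145, 37983636 and 34011537 counts in apigenin 1, 2 and 3 and 37173442, 37276429 and 34647650 in DMSO 1, 2 and 3. Samples of a group are labelled as biological replicates of 1 cell line, but no label says that they were separate cultures, so the p-values measure the spread between these samples, which may be technical. Of 10 markers of hepatocyte-derived carcinoma, all were tested. By edgeR, 3 were called lower (the secreted liver proteins ALB, APOB and SERPINA1) and 0 higher, against 4.22% and 2.76% of all tested genes. Their median log2 fold change was -0.48. With the length trend removed (described further on), 7 were called lower and 0 higher, against 5.38% and 4.63% of all tested genes. The median was then -0.43. ALB, serum albumin, stood at 51.5 to 53.9 CPM in apigenin and 119 to 125 CPM in DMSO libraries, and the epithelial keratin KRT8 at 2229 to 2569 CPM in apigenin and 2516 to 2592 CPM in DMSO libraries, and the leukocyte marker PTPRC at 0 to 0.268 CPM in apigenin and 0.0868 to 0.161 CPM in DMSO libraries. Among markers of other cell types, LUM (fibroblasts) was called higher, at 27.7 to 30.1 CPM in apigenin and 21.8 to 24.3 CPM in DMSO libraries, and ITGAM (leukocytes) lower, at 5.22 to 5.72 CPM in apigenin and 7.26 to 9.1 CPM in DMSO libraries. The part of these markers in the results on the respiratory chain was not tested. In bulk RNA, fewer cells of a kind and less RNA per cell cannot be told apart.

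The respiratory chain passes electrons from NADH (complex I) and succinate (complex II) through coenzyme Q to complex III, through cytochrome c to complex IV, and on to oxygen. Complexes I, III and IV pump protons as they do so, and complex V uses the gradient to make ATP. Its subunits come from both genomes, apart from complex II, which is wholly nuclear. In hepatocytes, which are rich in mitochondria, the chain serves fatty acid oxidation, gluconeogenesis and urea synthesis.

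The nuclear subunit genes stood slightly higher in apigenin libraries taken as a list, and hardly any single gene passed the test. Of the 82 genes, 79 had enough reads to be tested, of which 2 were called higher (COX6A1 and NDUFA2) and 0 lower by edgeR's quasi-likelihood test at an adjusted p under 0.05. Over all 15173 tested genes, 2.76% were called higher and 4.22% lower, so the nuclear share was near the background. At an unadjusted p under 0.05, 33 nuclear subunits were higher and 1 lower, against 11.7% and 12.6% of all tested genes. The log2 fold change (apigenin over DMSO) was above 0 in 74 of the 79 genes, against 50.8% of all tested genes. Its median over the 79 genes was 0.18, with a range of -0.15 to 0.33, and that of all tested genes was 0.00. The share of all counts held by the nuclear members was 0.881, 0.828 and 1.004% in apigenin 1, 2 and 3, and 0.812, 0.819 and 0.814% in DMSO 1, 2 and 3. Every apigenin library was above every DMSO library in this share, with apigenin 3 far above the rest and apigenin 2 close to DMSO.

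The 13 mitochondrially encoded genes had a median close to that of all tested genes in the full comparison. None was called higher or lower, against the same 2.76% and 4.22% of all tested genes, 0 were higher at an unadjusted p under 0.05, and 2 were lower (ND4L and ND5). With DESeq2, 0 were called higher and ND4L and ND5 were called lower, where 5.63% of all genes were higher and 7.54% lower. Their median log2 fold change was -0.03, with a range of -0.28 to 0.11. They took 6.95, 6.47 and 6.66% of counts in apigenin 1, 2 and 3 and 6.79, 6.61 and 6.88% in DMSO 1, 2 and 3, and the groups overlapped. With a trend on gene length removed from each library, a fit described further on, all 13 had a log2 fold change below 0. The median was then -0.17 and 9 were called lower, where 5.38% of all genes were. The median of these 13 genes did not show the rise of other short genes that this fit subtracts, as given further on. Single genes differed in this. Apigenin 3 was the highest of the 6 libraries for 5 of the 13 and the lowest for 3, against 27.4% and 27.6% of all tested genes.

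**Figure D1:**
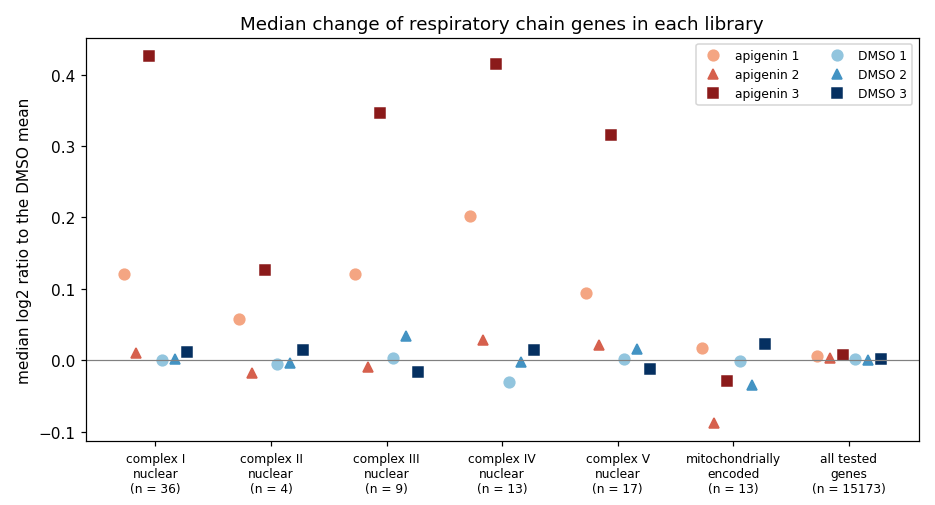
The median log2 ratio of CPM to the DMSO mean is plotted for each library over the nuclear subunits of each complex, the mitochondrially encoded genes and all tested genes, with n genes in each. In apigenin 3 the nuclear medians lie between 0.13 (complex II) and 0.43 (complex I), whereas in apigenin 2 they lie between -0.02 and 0.03, in the range of the DMSO libraries.

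The size of the nuclear shift differed between the 3 apigenin libraries. As a ratio to the DMSO mean, apigenin 1 had a median log2 value of 0.11 over the 79 genes, apigenin 2 one of 0.01 and apigenin 3 one of 0.38, and the median lay between -0.00 and 0.01 in the DMSO libraries. Apigenin 3 was the highest of the 6 libraries for 74 of the 79 genes (93.7%), whereas it was the highest for 27.4% of all tested genes and the lowest for 27.6%. The 3 apigenin libraries were all above the 3 DMSO libraries for 25 genes and all below for 2 (NDUFS1 and UQCRC2), and 52 overlapped, against 14.4% above and 15.0% below among all tested genes. Without apigenin 3 the nuclear median was 0.06 and 3 genes were called higher (COX6A1, NDUFA2 and UQCRFS1) and 0 lower, where 3.69% of all genes were higher and 5.31% lower. Without apigenin 2 the median was 0.25 and 50 were called higher and 1 lower (NDUFS1), where 8.66% of all genes were called higher and 9.97% lower. Without apigenin 1, DMSO 1, DMSO 2 or DMSO 3, no nuclear subunit was called by edgeR, where 0.807, 0.663, 0.9 and 0.795% of all genes were higher and 1.18, 1.01, 1.15 and 1.16% lower, in that order of fits. DESeq2 on all 6 libraries called 11 nuclear subunits higher and 0 lower, where 5.63% of all genes were higher and 7.54% lower. Without the filter on low counts, edgeR called 25 higher and 0 lower, where 3.75% of all genes were higher and 4.75% lower.

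The fold changes also moved with gene length. Log2 ratios over all tested genes changed by -0.07, -0.02 and -0.15 per doubling of gene length in apigenin 1, 2 and 3, and by -0.01 to 0.00 in the DMSO libraries, the same order of libraries as for the nuclear medians. The nuclear subunit genes were short, with a median length of 1299 nucleotides (nt) against 3872 nt for all tested genes. In the shortest of 5 equal groups by length (111 to 1987 nt), the 57 nuclear subunits had a median log2 fold change of 0.20 and all 3036 genes one of 0.14, whereas the 13 mitochondrially encoded genes, which fall in the same group, had one of -0.03. In the longest group (7092 nt or more) the 5 nuclear subunits had a median of 0.03 and all 3035 genes one of -0.13. When the smooth trend on length was removed from each library, the nuclear median was 0.04, with 57 of 79 genes above 0. The nuclear subunits followed length less steeply than all genes, by -0.04, -0.01 and -0.08 per doubling in apigenin 1, 2 and 3. Spearman's rho between their fold change and length was -0.53 in the full comparison and 0.44 with the trend removed, as a description over 79 genes that share the libraries. The removed trend was thus larger than their own, and after it the 57 shortest-group subunits had a median of 0.02 and the 5 longest-group subunits one of 0.19. In that fit 4 nuclear genes were called higher (COX7A2L, NDUFA11, SDHC and UQCRFS1) and 1 lower (UQCRC2), where 4.63% of all genes were higher and 5.38% lower, and COX6A1 and NDUFA2 were not called. The part of length in these differences was not tested beyond this.

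**Figure D2:**
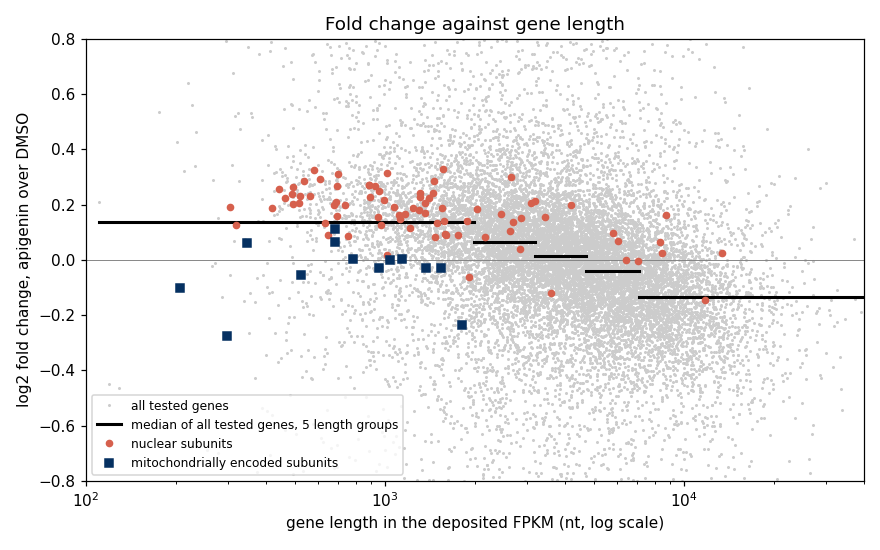
The log2 fold change (apigenin over DMSO) of each tested gene is plotted against its length in nt (log scale), with nuclear subunits as circles, mitochondrially encoded subunits as squares and bars at the median of all genes in 5 equal length groups. Points outside the axes are not drawn. The bars step down with length, and most nuclear subunits lie at or above the bar of their length group, whereas the 13 squares lie below theirs.

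NDUFA2 is an accessory subunit of the matrix arm of complex I. It had 48.2, 41.3 and 50.6 CPM (counts over a TMM-scaled library size) in apigenin 1, 2 and 3 and 38.0, 39.5 and 35.3 CPM in DMSO 1, 2 and 3. All apigenin libraries were above all DMSO libraries, with apigenin 2 the closest to them. Apigenin over DMSO, its log2 fold change was 0.31 ± 0.085 (SE, n = 3 each; adjusted p = 0.0432, edgeR), and 0.12 with the length trend removed (adjusted p = 0.284). Its gene overlaps TMCO6, and the use of strand in the counting is not stated. The 250 bases before its transcription start are shown because it was 1 of the 2 called genes (RefSeq, GRCh38.p14, chr5:140647631-140647880, minus strand, 5′ to 3′).
NDUFA2: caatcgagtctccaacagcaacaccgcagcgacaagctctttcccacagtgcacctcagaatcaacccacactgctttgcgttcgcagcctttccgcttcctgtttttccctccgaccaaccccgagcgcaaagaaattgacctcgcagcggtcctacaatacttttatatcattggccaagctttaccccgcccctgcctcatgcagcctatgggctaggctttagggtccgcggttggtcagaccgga

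COX6A1 encodes subunit VIa of complex IV in its liver form, which most tissues express. It had 296, 261 and 342 CPM in apigenin 1, 2 and 3 and 246, 246 and 245 CPM in DMSO 1, 2 and 3. The DMSO libraries were nearly equal and all apigenin libraries stood above them. On the log2 scale, the fold change was 0.29 ± 0.079 (SE, n = 3 each; adjusted p = 0.0433, edgeR), and 0.08 with the length trend removed (adjusted p = 0.279). Both calls, of COX6A1 and NDUFA2, were made in 10 of the 20 other settings tried, and both were lost without apigenin 1 or without any one DMSO library, at adjusted p of 0.136 to 0.17 for COX6A1 and 0.105 to 0.203 for NDUFA2. The sequence before the start of COX6A1 is on the plus strand at chr12:120437863-120438112 of GRCh38.p14, and capitals mark 3 stretches described further on.
COX6A1: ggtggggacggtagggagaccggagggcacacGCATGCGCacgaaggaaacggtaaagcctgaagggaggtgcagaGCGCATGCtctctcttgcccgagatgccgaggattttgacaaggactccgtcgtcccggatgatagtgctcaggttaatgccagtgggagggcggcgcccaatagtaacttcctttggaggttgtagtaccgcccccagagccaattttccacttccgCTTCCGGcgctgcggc

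UQCRFS1 encodes the Rieske iron-sulfur protein, which takes electrons from coenzyme Q in complex III. It was not called in the full comparison, but it was called in 9 of the 20 other settings, among them each fit of the length trend and the comparison without apigenin 3, and it is described here after its values were seen. It had 162, 164 and 178 CPM in apigenin 1, 2 and 3 and 147, 149 and 141 CPM in DMSO 1, 2 and 3. The apigenin libraries were all above the DMSO libraries, and apigenin 1 and 2 were close to each other. The log2 fold change was 0.20 ± 0.059 (SE, n = 3 each; adjusted p = 0.0521, edgeR), 0.17 with the length trend removed (adjusted p = 0.0265) and 0.16 without apigenin 3 (adjusted p = 0.0343). Its adjusted p over the 20 settings ranged between 0.0162 and 0.24. The 250 bases before its start lie at chr19:29213152-29213401, minus strand, with capitals on 1 stretch.
UQCRFS1: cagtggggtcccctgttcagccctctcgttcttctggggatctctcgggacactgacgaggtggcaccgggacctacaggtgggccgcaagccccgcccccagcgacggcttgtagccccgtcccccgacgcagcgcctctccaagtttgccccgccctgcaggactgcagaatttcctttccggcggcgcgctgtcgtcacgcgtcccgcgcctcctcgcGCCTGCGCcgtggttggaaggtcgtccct

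The capitals in these sequences mark letters that a pair of transcription factor families is known to bind before many respiratory chain genes. NRF1-type letters were searched as GCGCANGC, which read GCNTGCGC on the other strand. ETS-type letters, which the family of GABPA binds, were searched as CCGGAAG, and these are CTTCCGG when read on the other strand. The window was the 250 bases before the start. Of the 82 nuclear subunit genes, 68 had an entry in the RefSeq promoter set used, with 81 promoters. NRF1-type letters stood in 31 of these promoters (38.3%) and in 3661 of all 35116 promoters (10.4%). ETS-type letters stood in 19 (23.5%) and in 2991 of all promoters (8.52%). COX6A1 had 2 NRF1-type stretches and 1 ETS-type stretch, none overlapping, UQCRFS1 had 1 of the NRF1 type, and NDUFA2 had neither in this window. A match is a run of letters, not a measured site.

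**Figure D3:**
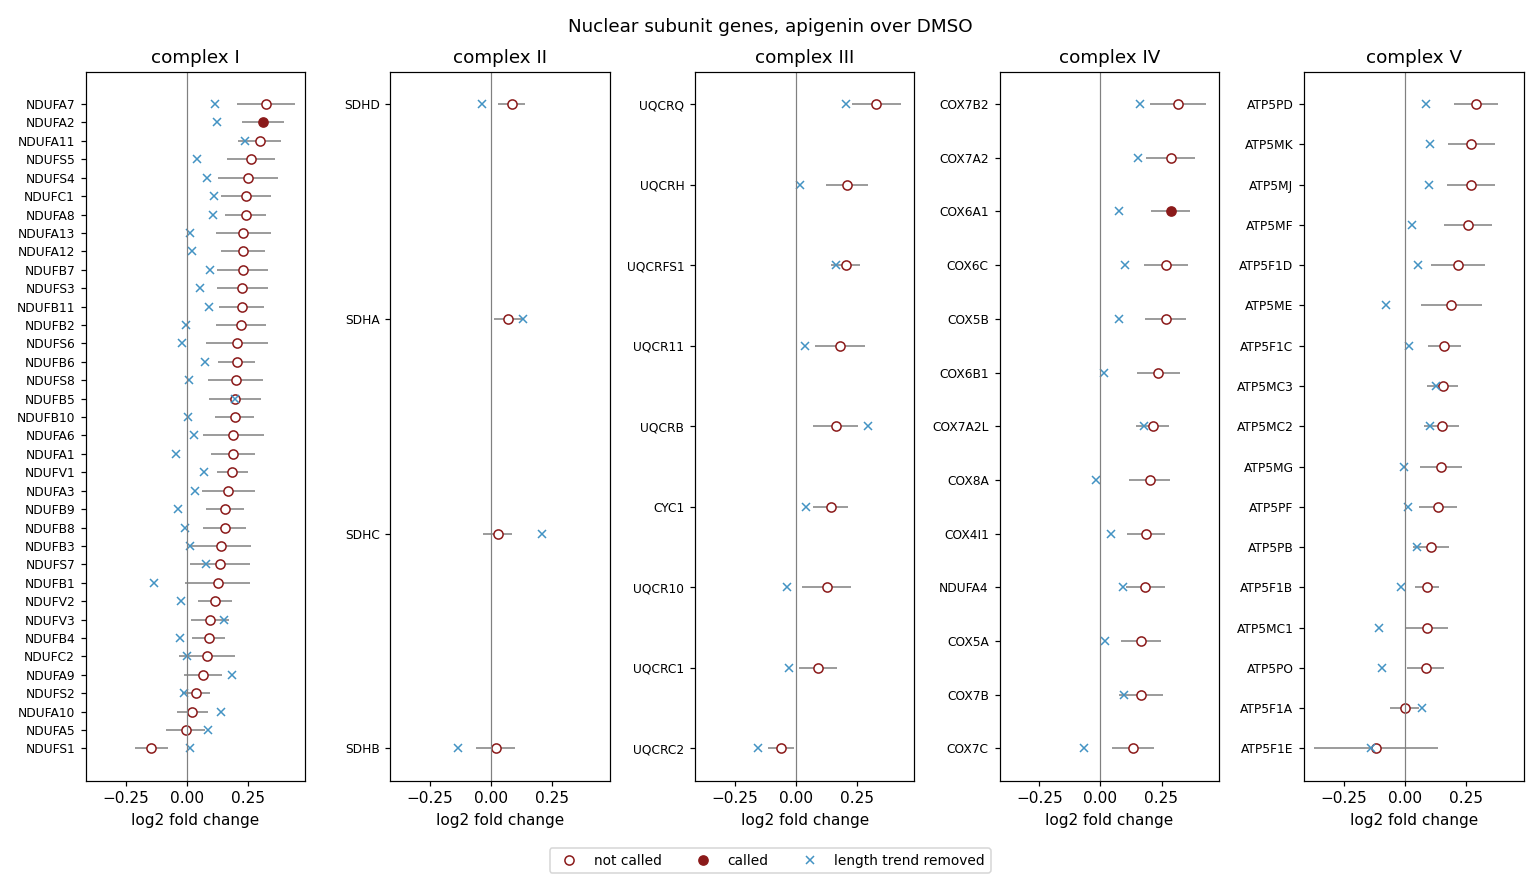
The log2 fold change (apigenin over DMSO) with its SE is plotted for each of the 79 tested nuclear subunit genes by complex, filled where called by edgeR (adjusted p under 0.05), and crosses give the value with the length trend removed. The circles of complex IV all lie above 0, between 0.13 (COX7C) and 0.32 (COX7B2), and most crosses lie nearer to 0 than their circles.

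In complex I, which takes electrons from NADH, 1 of 36 nuclear subunits was called higher (NDUFA2) and 0 lower, against 2.76% and 4.22% of all tested genes. The log2 fold change was above 0 in 34 of the 36, against 50.8% of all tested genes. Its median was 0.19, or 0.04 with the length trend removed. The summed level, in FPKM and therefore per length, was 2436, 2249 and 2909 in apigenin 1, 2 and 3 and 2211, 2232 and 2211 in DMSO 1, 2 and 3. NDUFA7, an accessory subunit, had the highest fold change, with 22.9, 20.6 and 28.7 CPM in apigenin and 20.5, 17.6 and 19.6 CPM in DMSO libraries. Apigenin 3 stood well above the other libraries, and apigenin 2 was within 1 CPM of DMSO 1. Its log2 fold change was 0.33 ± 0.12 (SE; adjusted p = 0.109). NDUFA11, a membrane-arm accessory subunit that was named after its values were seen, had 50.3, 45.0 and 57.7 CPM in apigenin and 39.0, 42.0 and 43.4 CPM in DMSO libraries. The groups did not overlap, the log2 fold change was 0.30 ± 0.089 (SE; adjusted p = 0.0584), and with the length trend removed it was 0.24 (adjusted p = 0.0384).

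NDUFS1, the large iron-sulfur core subunit of the NADH-oxidising arm, was the complex I gene with the lowest fold change and has one of the longest gene models in the list (11774 nt). It had 108, 117 and 99.2 CPM in apigenin 1, 2 and 3 and 123, 117 and 118 CPM in DMSO 1, 2 and 3. Apigenin 2 and DMSO 2 were almost equal, and apigenin 3 was the lowest of the 6 libraries. NDUFS1 had a log2 fold change of -0.15 ± 0.067 (SE; adjusted p = 0.201) and 0.02 with the length trend removed (adjusted p = 0.898). NDUFA5, an accessory subunit of the matrix arm with a gene model of 7048 nt, had 49.0, 49.9 and 58.9 CPM in apigenin and 53.6, 50.9 and 53.8 CPM in DMSO libraries, and the groups overlapped (log2 fold change -0.00, adjusted p = 0.984). NDUFC2, at 13.6 to 16.2 CPM in apigenin and 12.8 to 15.8 CPM in DMSO libraries, was low for a subunit gene. The NDUFC2 gene overlaps THRSP, and the part of this overlap in its low count was not tested.

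Complex II, succinate dehydrogenase, had the smallest median of the 5 nuclear lists in the full comparison (0.05). With the length trend removed its median was also 0.05, above those of complexes I, III and V. The flavoprotein gene SDHA had 212, 193 and 215 CPM in apigenin and 193, 200 and 196 CPM in DMSO libraries (log2 fold change 0.07, adjusted p = 0.5). The iron-sulfur gene SDHB had 60.9, 56.9 and 71.0 CPM in apigenin and 62.6, 62.7 and 61.1 CPM in DMSO libraries (0.02, adjusted p = 0.921). Both genes overlapped between the groups. SDHC, a membrane anchor with a gene model of 13442 nt, had 106, 101 and 104 CPM in apigenin and 101, 98.8 and 105 CPM in DMSO libraries. Its groups overlapped (log2 fold change 0.03, adjusted p = 0.837), and it was called higher in 2 of the 20 other settings, both with the length trend removed (0.21, adjusted p = 0.0386, without a replicate block). The other anchor gene, SDHD, had 147, 148 and 155 CPM in apigenin and 141, 140 and 144 CPM in DMSO libraries, with no overlap but no call (0.08, adjusted p = 0.38).

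In complex III, 0 of 9 nuclear subunits were called, where 2.76% of all tested genes were called higher and 4.22% lower. The median log2 fold change was 0.16, or 0.04 with the length trend removed. UQCRQ, a small subunit that lies close to cytochrome b, had 82.7, 76.2 and 105 CPM in apigenin and 68.5, 74.7 and 67.1 CPM in DMSO libraries. The groups did not overlap, with apigenin 2 just above DMSO 2, and the log2 fold change of 0.33 ± 0.1 (SE) missed the threshold (adjusted p = 0.061). The UQCRQ gene overlaps GDF9. UQCRH, the hinge protein between cytochromes c1 and c, had 131, 114 and 153 CPM in apigenin and 117, 113 and 114 CPM in DMSO libraries, with overlap (0.21, adjusted p = 0.146). Its retrocopy UQCRHL had 6.97 to 12.2 CPM in apigenin and 6.98 to 9.78 CPM in DMSO libraries, and reads of these near copies may be split between them.

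The core proteins of complex III, which carry no redox centre, were at the low end. UQCRC1 had 93.5, 83.5 and 102 CPM in apigenin and 91.0, 89.9 and 80.8 CPM in DMSO libraries (log2 fold change 0.09, adjusted p = 0.508). UQCRC2 had 168, 169 and 172 CPM in apigenin and 173, 179 and 179 CPM in DMSO libraries. For UQCRC2 all apigenin libraries lay below all DMSO libraries by a few per cent, with a log2 fold change of -0.06 ± 0.053 (SE; adjusted p = 0.516). With the length trend removed it was -0.16 (adjusted p = 0.0393), and in that fit the Rieske gene UQCRFS1 was called higher and UQCRC2 lower. UQCRC2 was called in 2 of the 20 other settings, both with the length trend removed. It was not called with the trend removed and apigenin 3 left out. The gene of cytochrome c1, CYC1, had 203, 185 and 224 CPM in apigenin and 189, 189 and 176 CPM in DMSO libraries, with overlap (0.14, adjusted p = 0.23).

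Complex IV, cytochrome c oxidase, had the largest median of the 5 nuclear lists in the full comparison (0.21) and with the length trend removed (0.08). All 13 tested subunits had a log2 fold change above 0, against 50.8% of all tested genes. Summed FPKM were 2354, 2106 and 2735 in apigenin 1, 2 and 3 and 2038, 2049 and 2062 in DMSO 1, 2 and 3, so that every apigenin library was above every DMSO library. Several subunits come as pairs of genes for tissues of different kinds. The widely expressed forms were present (COX4I1, COX6A1, COX6B1, COX7A2, COX7B and COX8A), and COX4I2, COX6B2 and COX8C, known from lung or testis, had 0 to 0.183 CPM in apigenin and 0 to 0.161 CPM in DMSO libraries and were not tested. A count of 0 allows up to 0.079 to 0.0885 CPM per library (3 counts, counting error only).

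COX7B2, a form of subunit VIIb best known from testis, was present at a low level in these cells. It had 12.4, 11.8 and 14.1 CPM in apigenin and 9.88, 10.1 and 10.8 CPM in DMSO libraries, with no overlap, and its log2 fold change of 0.32 ± 0.12 (SE) was not called by edgeR (adjusted p = 0.108). It was the only subunit gene called by limma on log2(FPKM + 1) with the FPKM filter. COX7A2, the widely expressed form of subunit VIIa, had 95.5, 80.9 and 115 CPM in apigenin and 76.2, 85.4 and 77.5 CPM in DMSO libraries, and apigenin 2 lay below DMSO 2 (0.29 ± 0.1 (SE), adjusted p = 0.102). COX7A2L, a related protein that joins complexes III and IV into supercomplexes, had 102, 101 and 116 CPM in apigenin and 88.5, 90.5 and 95.9 CPM in DMSO libraries. Its groups did not overlap, and the log2 fold change was 0.21 ± 0.068 (SE; adjusted p = 0.0749), or 0.18 with the length trend removed (adjusted p = 0.0466).

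None of the other isoform genes of complex IV was called by edgeR in the full comparison. COX4I1 had 218, 211 and 266 CPM in apigenin and 198, 208 and 205 CPM in DMSO libraries (log2 fold change 0.19, adjusted p = 0.156). COX6B1 had 158, 140 and 188 CPM in apigenin and 142, 132 and 139 CPM in DMSO libraries (0.24, adjusted p = 0.11). For both genes apigenin 3 was far above the other 5 libraries, and COX6B1 overlapped between the groups. COX8A had a log2 fold change of 0.20 (adjusted p = 0.157), COX7B of 0.17 (adjusted p = 0.285) and COX7C, the lowest of complex IV, of 0.13 (adjusted p = 0.38).

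In complex V, 0 of 17 nuclear subunits were called, where 2.76% of all tested genes were called higher and 4.22% lower. The median log2 fold change was 0.15, or 0.03 with the length trend removed. Apigenin 3 was the highest library for all 17, as it was for all 13 tested subunits of complex IV. It was the highest for 93.7% of the 79 nuclear subunits and for 27.4% of all tested genes. ATP5PD, subunit d of the peripheral stalk, had 147, 135 and 182 CPM in apigenin and 126, 121 and 132 CPM in DMSO libraries. The groups did not overlap, but the log2 fold change of 0.29 ± 0.091 (SE) missed the threshold (adjusted p = 0.0668). ATP5MK, a small membrane subunit involved in dimer formation, had 71.7, 69.8 and 92.6 CPM in apigenin and 67.0, 65.1 and 61.5 CPM in DMSO libraries, with no overlap (0.27 ± 0.094 (SE), adjusted p = 0.0948). The genes of ATP5PD and ATP5MK overlap KCTD2 and TAF5.

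The alpha and beta subunits, which form the catalytic head of the ATP synthase, had smaller fold changes than ATP5PD and ATP5MK, a difference that was not tested. ATP5F1B, the catalytic beta subunit, had 978, 937 and 1030 CPM in apigenin and 918, 923 and 926 CPM in DMSO libraries (log2 fold change 0.09, adjusted p = 0.295), with no overlap. ATP5F1A, the alpha subunit, had 264, 250 and 285 CPM in apigenin and 269, 267 and 264 CPM in DMSO libraries, and the groups overlapped (-0.00, adjusted p = 0.987). ATP5PO, the protein that joins head and stalk, had a log2 fold change of 0.09 (adjusted p = 0.53). The genes for the c-ring, ATP5MC1, ATP5MC2 and ATP5MC3, which encode the same mature protein, had fold changes of 0.09, 0.15 and 0.15 on the log2 scale, and none was called. ATP5F1E, the epsilon subunit, had 1.96 to 3.9 CPM in apigenin and 2.78 to 3.34 CPM in DMSO libraries, far under the other subunits, and its gene model overlaps TUBB1.

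ATP5IF1, which inhibits the ATP synthase when it runs backwards, had 34.7, 31.7 and 41.8 CPM in apigenin and 34.6, 31.6 and 35.2 CPM in DMSO libraries. Apigenin 3 was the highest library and the other 5 lay close together, and the log2 fold change of 0.09 ± 0.098 (SE) was not called (adjusted p = 0.612). UQCRFS1-DT was below 0.84 CPM in every library and UQCRB-AS1 and ATP5MGL below 0.06 CPM, the last 2 not tested.

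Per length, the mitochondrially encoded genes stood far above the nuclear ones. The median gene had 3770 FPKM in apigenin and 3769 FPKM in DMSO among the 13 mitochondrially encoded genes. Among all 82 nuclear subunit genes, it had 61.9 FPKM in apigenin and 55.1 FPKM in DMSO. The highest nuclear genes in DMSO were ATP5F1B, with 557 ± 20.4 FPKM in apigenin and 524 ± 2.4 FPKM in DMSO (SD, n = 3 each), and COX6A1, with 557 ± 69.9 FPKM in apigenin and 458 ± 2.11 FPKM in DMSO. COX1, the catalytic subunit of complex IV, had 12620 ± 337 FPKM in apigenin and 12880 ± 248 FPKM in DMSO. Summed FPKM of the mitochondrially encoded genes over those of the nuclear subunits gave a ratio of 9.22, 9.34 and 7.67 in apigenin 1, 2 and 3 and 10, 9.66 and 10.2 in DMSO 1, 2 and 3. All apigenin libraries were below all DMSO libraries in this ratio, and apigenin 3 was the lowest. The nuclear sum was 7696, 7081 and 8981 FPKM in apigenin and 6932, 7000 and 6945 FPKM in DMSO libraries, with no overlap. Summed over all tested genes, FPKM was 405650, 390590 and 425120 in apigenin and 389840, 390460 and 391270 in DMSO libraries. The nuclear median log2 fold change was 0.18, or 0.04 with the length trend removed. The part of gene length in the ratio was not tested. The mitochondrial sum, which overlapped between the groups, was 70976, 66108 and 68905 FPKM in apigenin and 69348, 67641 and 70922 FPKM in DMSO libraries.

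**Figure D4:**
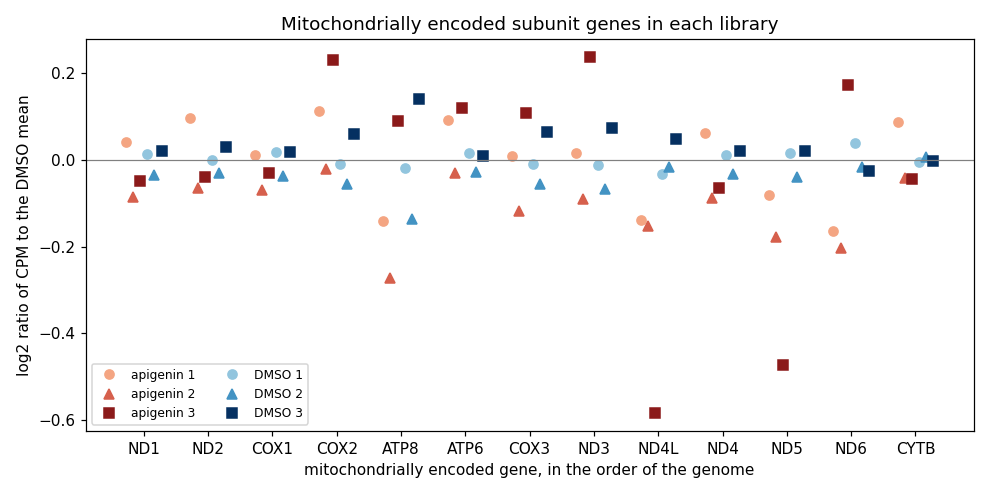
The log2 ratio of CPM to the DMSO mean is plotted for each of the 13 mitochondrially encoded genes in each of the 6 libraries, in the order of the genes on the mitochondrial genome. In most genes the groups overlap, and apigenin 3 lies far below the others for ND4L and ND5.

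ND4L and ND5, which encode membrane-arm subunits of complex I, were the mitochondrial genes with the lowest fold changes. ND4L had 1479, 1466 and 1086 CPM in apigenin 1, 2 and 3 and 1592, 1610 and 1683 CPM in DMSO 1, 2 and 3. All apigenin libraries were below all DMSO libraries, and apigenin 3 was far below apigenin 1 and 2. The log2 fold change was -0.28 ± 0.089 (SE; adjusted p = 0.0762), and -0.15 without apigenin 3 (adjusted p = 0.00723). ND5 had 2629, 2460 and 2003 CPM in apigenin and 2812, 2710 and 2825 CPM in DMSO libraries. Again all apigenin libraries were below all DMSO libraries, with apigenin 3 lowest, and the log2 fold change was -0.24 ± 0.076 (SE; adjusted p = 0.0753), or -0.13 without apigenin 3 (adjusted p = 0.0151). Without apigenin 2 both were also called lower, ND4L at -0.35 (adjusted p = 0.0108) and ND5 at -0.27 (adjusted p = 0.0231). With the length trend removed both were called lower, ND4L at -0.50 (adjusted p = 0.0115) and ND5 at -0.33 (adjusted p = 0.0104).

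ND4L shares its messenger RNA with ND4, the next gene, and their coding sequences overlap. The last 60 bases of ND4L (GENCODE 29 transcripts, GRCh38, chrM:10707-10766, plus strand) and the first 60 of ND4 (chrM:10760-10819) are given to show the 7 bases that belong to both genes, which are in capitals.
ND4L end: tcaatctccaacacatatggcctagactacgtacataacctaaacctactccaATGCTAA
ND4 start: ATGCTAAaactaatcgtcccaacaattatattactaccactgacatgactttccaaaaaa
ND4 had 13180, 11890 and 12080 CPM in apigenin and 12730, 12350 and 12810 CPM in DMSO libraries, and the groups overlapped (log2 fold change -0.03, adjusted p = 0.742). ND4L counts were 11.2, 12.3 and 8.99% of those of ND4 in apigenin 1, 2 and 3 and 12.5, 13.04 and 13.1% in DMSO 1, 2 and 3. All apigenin libraries were thus below all DMSO libraries, although both genes lie on 1 messenger RNA. What sets this ratio was not tested. ATP8 and ATP6, which share 46 bases, had log2 fold changes of -0.10 (adjusted p = 0.518) and 0.06 (adjusted p = 0.451), and without apigenin 3 ATP8 was called lower at -0.21 (adjusted p = 0.0207).

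The remaining mitochondrial genes overlapped between the groups. ND1 had 3360, 3078 and 3156 CPM in apigenin and 3297, 3188 and 3313 CPM in DMSO libraries (log2 fold change -0.03, adjusted p = 0.742). ND2 had 3339, 2981 and 3038 CPM in apigenin and 3118, 3055 and 3186 CPM in DMSO libraries (adjusted p = 0.998). In ND1 and ND2, both core subunits of complex I, apigenin 1 was the highest library and apigenin 2 the lowest. ND3 had a log2 fold change of 0.06 (adjusted p = 0.66), and CYTB, the cytochrome b of complex III, of 0.00 (adjusted p = 0.99). ND6, the only one of the 13 on the light strand, had 263, 256 and 333 CPM in apigenin and 303, 292 and 290 CPM in DMSO libraries. In ND6, apigenin 1 and 2 were below and apigenin 3 above every DMSO library (log2 fold change -0.06, adjusted p = 0.738), and without apigenin 3 ND6 was called lower at -0.18 (adjusted p = 0.00655).

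For complex IV, whose catalytic core is mitochondrially encoded, COX1 had 20040, 18940 and 19460 CPM in apigenin and 20110, 19370 and 20120 CPM in DMSO libraries (log2 fold change -0.03, adjusted p = 0.695). COX2 had 8297, 7566 and 9007 CPM in apigenin and 7627, 7392 and 8009 CPM in DMSO libraries (0.11, adjusted p = 0.249), and COX3 had 7529, 6903 and 8075 CPM in apigenin and 7433, 7199 and 7823 CPM in DMSO libraries (0.00, adjusted p = 0.983). Neither gene separated the groups, and apigenin 3 was the highest library for both. Without apigenin 2, COX2 was called higher at 0.17 (adjusted p = 0.0123). With the length trend removed, all 13 mitochondrially encoded genes had a log2 fold change below 0, with a median of -0.17, and 9 were called lower (ATP8, COX1, COX3, ND1, ND3, ND4, ND4L, ND5 and ND6), where 5.38% of all genes were. The direction of COX3 and ND3 thus depended on this setting, at 0.00 and 0.06 in the full comparison and -0.17 and -0.18 with the trend removed. In the shortest length group, all genes had median log2 ratios to the DMSO mean of 0.12, 0.029 and 0.265 in apigenin 1, 2 and 3. The 13 mitochondrially encoded genes had medians of 0.017, -0.088 and -0.029 in the same libraries, with apigenin 3 the highest of the 6 libraries for 5 of them and the lowest for 3. Whether the trend applies to them was not tested.

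Among the other genes of the pathway, few passed the test, as over all tested genes, where 2.76% were called higher and 4.22% lower. Of the tested assembly factors, 18 for complex I, 4 for II, 6 for III, 25 for IV and 6 for V, 1 was called higher (COA6, a copper chaperone of complex IV) and 0 lower. COA6 had 57.0, 55.3 and 66.7 CPM in apigenin and 48.1, 49.0 and 45.8 CPM in DMSO libraries. The groups did not overlap, with a log2 fold change of 0.33 ± 0.079 (SE; adjusted p = 0.0273), or 0.25 with the length trend removed (adjusted p = 0.0135). The call of COA6 was lost without apigenin 1 or any one DMSO library, at adjusted p of 0.0756 to 0.146. The medians of the assembly lists were 0.06 for complex I, 0.09 for II, 0.13 for III, 0.12 for IV and 0.05 for V.

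Of 24 tested genes that transcribe the mitochondrial genome or process its RNA, 2 were called higher and 0 lower. Over all tested genes, 2.76% were called higher and 4.22% lower. The median log2 fold change of the list was 0.14. With the length trend removed, FASTKD2 was called higher as well (0.22, adjusted p = 0.0318), where 4.63% of all genes were. TFB2M, a transcription factor of the mitochondrial RNA polymerase, had 49.4, 50.4 and 56.7 CPM in apigenin and 44.1, 41.8 and 39.5 CPM in DMSO libraries. TRMT10C, a subunit of the mitochondrial RNase P that frees transfer RNAs from the long transcripts, had 46.3, 49.8 and 59.8 CPM in apigenin and 42.6, 40.5 and 40.8 CPM in DMSO libraries. Neither gene overlapped between the groups, with log2 fold changes of 0.32 ± 0.077 (SE; adjusted p = 0.0254) for TFB2M and 0.33 ± 0.089 (SE; adjusted p = 0.0395) for TRMT10C. Both calls were lost without apigenin 1 or any one DMSO library, at adjusted p of 0.0659 to 0.15 for TFB2M and 0.0501 to 0.162 for TRMT10C. The polymerase POLRMT (0.17, adjusted p = 0.15) and the packaging factor TFAM (0.04, adjusted p = 0.756) were not called.

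None of the 12 tested regulators of mitochondrial biogenesis was called by edgeR in the full comparison, and their median was -0.00. Of all tested genes, 2.76% were called higher and 4.22% lower. With the length trend removed, GABPB1 (0.38, adjusted p = 0.00131) and YY1 (0.19, adjusted p = 0.0217) were called higher, where 4.63% of all genes were. GABPB1, the partner subunit of GABPA, had 39.2, 41.2 and 38.4 CPM in apigenin and 35.7, 32.1 and 32.2 CPM in DMSO libraries. Its groups did not overlap, its log2 fold change was 0.25 ± 0.076 (SE; adjusted p = 0.0634), and it was called in 6 of the 20 other settings, among them the one without apigenin 3 (0.27, adjusted p = 0.0279). NRF1 had 18.4, 17.0 and 20.8 CPM in apigenin and 17.5, 15.9 and 18.1 CPM in DMSO libraries (log2 fold change 0.13, adjusted p = 0.488). GABPA had 35.9, 43.2 and 37.9 CPM in apigenin and 40.5, 36.4 and 39.7 CPM in DMSO libraries (0.01, adjusted p = 0.982). NRF1 and GABPA overlapped between the groups. ESRRA (0.10, adjusted p = 0.472) and the coactivator PPARGC1B (-0.26, adjusted p = 0.3) were not called either, and PPARGC1A was too low to test, at 0.059 to 0.157 CPM in apigenin and 0.203 to 0.588 CPM in DMSO libraries.

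Where electrons enter the chain beside complexes I and II, ETFB was the gene that was called. It encodes a subunit of the flavoprotein that carries electrons from fatty acid oxidation to coenzyme Q. ETFB had 548, 496 and 695 CPM in apigenin and 447, 465 and 447 CPM in DMSO libraries. All apigenin libraries were above all DMSO libraries, with apigenin 3 the highest, and the log2 fold change was 0.36 ± 0.092 (SE; adjusted p = 0.035). The call of ETFB was lost without apigenin 1 or any one DMSO library, at adjusted p of 0.0924 to 0.159. It was the 1 called gene among 19 tested genes of its list, whose median was 0.12. Over all tested genes, 2.76% were called higher and 4.22% lower, or 4.63% and 5.38% with the length trend removed. NDUFAB1, the acyl carrier protein that is also a complex I subunit, was in that list because its symbol lies outside the NDUF pattern used here, and had a log2 fold change of 0.17 (adjusted p = 0.346). Of 15 tested genes for coenzyme Q synthesis and cytochrome c, 0 were called by edgeR in the full comparison and the median was 0.05. COQ8B, a kinase-like protein of coenzyme Q synthesis, was called lower with the length trend removed (-0.37, adjusted p = 0.0337; -0.32, adjusted p = 0.0859 in the full comparison), and in 3 of the 20 other settings in all.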

How the data were processed

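Per the labels' protocols, TRIzol was used to isolate total RNA, and libraries were prepared with a VAHTS Universal V6 kit. The submitters' processing notes name fastp, HISAT2 and HTSeq with GRCh38 (hg38); the sources used here give neither their versions nor the use of strand. The authors deposited, per sample, raw read counts per gene symbol (23059 genes) and FPKM values, which equal counts divided by gene length and total for 100% of genes (tolerance 0.0001), so lengths came from them. Samples were grouped by their titles. Symbols took positions, overlaps and promoters from RefSeq tables of GRCh38.p14.

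Counts were tested with edgeR 4.0.16 (R 4.3.3; quasi-likelihood, TMM factors, default low-count filter, 15173 genes), two-sided, with Benjamini-Hochberg adjustment over all tested genes at 0.05. The SE is the fold change over the root of F. The replicate numbers were not used to pair samples in the full comparison. Other settings were DESeq2 1.42.0, limma 3.58.1, other scaling, filters (none, or 1 CPM in 3 libraries), a replicate block, each library left out, and a lowess trend (span 0.3) on log2 length removed as offsets. Limma was run on log2(FPKM + 1) with and without a filter of 0.5 FPKM in 3 libraries, and on log2(FPKM + 0.1) with that filter. FPKM fold changes understate low genes. Steps were tested on simulated data. Members and lists were chosen with earlier results of these data known. Named genes were all called members, all mitochondrially encoded members, in each complex the 2 highest and 2 lowest nuclear fold changes at a mean of 10 CPM or more, the complex IV isoforms, ATP5IF1, up to 4 called genes of each related list, and TFAM, NRF1, GABPA, ESRRA, PPARGC1A, PPARGC1B, POLRMT and NDUFAB1. Other members are shown for their role or after their values were seen.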

Additional observations from a re-analysis of the deposited data

How the results depend on the processing

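Calls among the members sit near the threshold. Nuclear subunits called higher numbered 2 in the full comparison, 11 with DESeq2, 25 without a filter, 4 with the length trend removed, 1 with the trend removed and apigenin 3 left out (4.18% of all genes), 1 with limma on log2(FPKM + 1) or log2(FPKM + 0.1) (2.8 and 2.67%), 0 without the FPKM filter (0.338%), and 0 to 50 with 1 library left out. Those called lower numbered 0, 1 with the trend removed, and 0 to 1 with 1 library left out. Mitochondrially encoded genes called lower numbered 0, 2 with DESeq2 or no filter, 9 with the trend removed, with or without apigenin 3 (4.99% of all genes lower without it), and 0 to 4 with 1 library left out; those called higher numbered 0 to 1 there (COX2 without apigenin 2). Their median was -0.03, -0.17 with the trend removed and -0.10 without apigenin 3 as well, a setting in which the complex V median was -0.005. ND3 (-0.18, and -0.16 without apigenin 3) and COX3 (-0.17, and -0.14) then lay below 0. The replicate block gave 7 nuclear genes higher and 2 mitochondrial genes lower (3.0% of all genes higher, 5.11% lower); with the length trend removed it gave 7 higher, 1 lower, 12 mitochondrial genes lower (5.46% of all genes higher, 5.98% lower), a mitochondrial median of -0.17, and values below 0 for COX3 (-0.17), ND3 (-0.18), ATP6 (-0.12) and CYTB (-0.14). Same-numbered libraries deviated with correlations of -0.017, -0.019 and -0.048, and none of the apigenin libraries correlated best with its own number. No shared deviation of same-numbered samples was thus seen. This cannot exclude that samples were handled in pairs, which the titles do not say. Over 107 tested genes and 20 other settings, 1939 of 2136 values kept their side of the threshold, 48 lost a call, 141 gained one and 8 reversed. Among 1847 uncalled values, 137 had another sign than in the full comparison. The cause of these moves was not tested. With 3 libraries a group, shifts of the size seen here are close to the spread between the apigenin libraries.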

Other observations

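The tricarboxylic acid cycle, which supplies the chain with NADH and succinate, had 1 called gene among 19 tested, with a median log2 fold change of 0.05. Over all tested genes, 2.76% were called higher and 4.22% lower, or 4.63% and 5.38% with the length trend removed. SUCLG2, the GTP-forming beta subunit of succinyl-CoA ligase, had 90.1, 86.3 and 87.6 CPM in apigenin 1, 2 and 3 and 113, 106 and 110 CPM in DMSO 1, 2 and 3. All apigenin libraries were below all DMSO libraries and were close to each other, and the log2 fold change was -0.32 ± 0.059 (SE; adjusted p = 0.00612, edgeR), or -0.35 with the length trend removed (adjusted p = 0.000116). Without DMSO 1 or DMSO 3 the call of SUCLG2 was lost (adjusted p = 0.0702 and 0.0529). IDH2, a mitochondrial isocitrate dehydrogenase, was called lower with the length trend removed (-0.22, adjusted p = 0.0388; -0.17, adjusted p = 0.174 in the full comparison). Of 12 tested genes that copy and maintain mitochondrial DNA, 0 were called by edgeR, and their median was 0.01.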
